A study of Mus musculus with 8 samples.

Results

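Mitochondrial respiratory complexes II to V and cytochrome c were examined gene by gene in the extensor digitorum longus (EDL), a mouse hind limb muscle made mostly of fast fibres, from mice without Sod1 and from wild-type mice. Genes were taken by their platform symbol (those beginning with Sdha to Sdhd, Uqcr, Cox followed by a digit or Atp5, together with Cyc1 and Cycs). This gave 50 of the 7053 named genes, on 55 of the 9232 probes. A gene with more than 1 probe was read from the one with the highest mean. By role they were 6 genes of complex II, 7 of complex III, cytochrome c itself, 13 subunits and 8 assembly factors of complex IV, and 15 subunits of complex V. All 50 lay above the median of the array in at least 4 arrays, the condition for testing, so no member was lost.

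The study holds 4 arrays of the Sod1 knockout, labelled sod-/-, and 4 of the wild type, from muscle of mice aged 7 months, with RNA hybridized to Illumina bead arrays. Its title places the comparison in lasting oxidative stress of skeletal muscle. Strain, sex and any pooling of animals are not stated in the labels. Nor do they say that each array of a genotype is a different animal, and a p-value here therefore refers to the spread among arrays, which may be technical. The level of Sod1, the cytosolic copper-zinc superoxide dismutase, was not analysed here, and the genotype labels could not be compared with it. All 10 measured skeletal muscle markers, Acta1, Ckm and Pvalb among them, passed the filter, and their mean log2 intensity was 13.12 to 13.24 in the knockout arrays and 13.05 to 13.11 in the wild-type arrays. The mean levels of the markers of adipocytes, heart, macrophages, endothelium, red blood cells, nerve and fibroblasts overlapped between the genotypes, on the few probes measured for each, and 0 of these genes passed limma's test. All 4 heart markers had higher means in the knockout, with Myl4 at 1.07 (unadjusted p 0.004, limma adjusted p 0.423), and all 5 endothelial markers lower means. Tek and the adipocyte marker Fabp4, both below the filter, were lower without overlap. The other adipocyte marker, Cidea, differed by 1.45 with overlapping values, and Pmp22, a marker of Schwann cells, by -0.86. Whether these signals came from such cells or from the muscle fibres, and their part in the members' values, was not tested.

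Complex II oxidizes succinate and passes the electrons to ubiquinone, complex III passes them on to cytochrome c, and complex IV, cytochrome c oxidase, hands them to oxygen. Complexes III and IV pump protons across the inner mitochondrial membrane, and complex V, the ATP synthase, uses the return of those protons to make ATP. Several subunits of complex IV exist as a heart and muscle isoform and a widely expressed isoform, and complex IV needs copper and heme A that dedicated assembly factors supply. The genes measured here are nuclear genes, and many genes of this kind carry binding sites of NRF1 and of ETS factors such as GABP before their start.

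Promoter windows from RefSeq (GRCm38.p6, 250 bases before to 50 after the start of a gene) matched 40 of the 50 members. The NRF1 core (GCGCA, any base, then GCGC) was found in 11 of them, or 27.5%, against 13.6% of 3185 tested genes and 5.19% of 27025 genes in all. The ETS core CCGGAAG was found in 18, or 45%, against 23.5% and 9.93%. The YY1 core AANATGGCG was found in 5 of the 40, against 7.82% and 2.76% of the same backgrounds. Both strands were searched, the motifs were counted apart, and the windows held a median of 58.7% G and C in the members and 61% in the tested genes. Both NRF1 and ETS cores were held by 5 members, and 14 of the 40 held none of the motifs. A match describes letters only. Shown first are the 250 bases before the start of Sdhd, Cox6a1 and Atp5h, as members of complexes II, IV and V that hold both cores, and then Atp5b, which is shown because its values did not overlap between the genotypes. Capitals mark the matches, and each line is read on the strand of its gene. The windows lie at chr9:50603850-50604099 (minus strand), chr5:115348959-115349208 (minus), chr11:115419920-115420169 (minus) and chr10:128083057-128083306 (plus).
Sdhd: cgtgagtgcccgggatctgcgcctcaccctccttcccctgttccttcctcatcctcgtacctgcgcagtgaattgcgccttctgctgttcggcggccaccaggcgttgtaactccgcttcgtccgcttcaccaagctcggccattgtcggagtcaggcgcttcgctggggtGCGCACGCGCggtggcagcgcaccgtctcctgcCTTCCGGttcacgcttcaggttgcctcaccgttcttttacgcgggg
Cox6a1: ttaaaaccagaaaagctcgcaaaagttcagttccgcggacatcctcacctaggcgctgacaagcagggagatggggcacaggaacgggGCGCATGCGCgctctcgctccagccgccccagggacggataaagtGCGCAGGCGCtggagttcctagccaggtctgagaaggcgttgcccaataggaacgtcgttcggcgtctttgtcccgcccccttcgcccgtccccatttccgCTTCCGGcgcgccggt
Atp5h: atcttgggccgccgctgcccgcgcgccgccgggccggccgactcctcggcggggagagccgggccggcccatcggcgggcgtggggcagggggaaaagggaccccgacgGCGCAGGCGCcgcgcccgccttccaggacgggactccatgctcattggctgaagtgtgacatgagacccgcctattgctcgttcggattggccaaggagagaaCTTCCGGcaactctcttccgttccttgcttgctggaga
Atp5b: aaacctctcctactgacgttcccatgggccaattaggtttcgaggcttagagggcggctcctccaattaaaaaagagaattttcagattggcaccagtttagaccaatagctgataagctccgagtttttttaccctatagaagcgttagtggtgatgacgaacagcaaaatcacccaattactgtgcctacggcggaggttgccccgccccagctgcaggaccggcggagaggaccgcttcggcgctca
In Sdhd the NRF1 core began 79 bases and the ETS core 46 bases before the start. In Cox6a1 there were 2 NRF1 matches, the farther beginning 162 bases before the start, and an ETS core at 16 bases. In Atp5h the cores began 141 and 38 bases before the start. The printed bases of Atp5b hold 0 matches, and the YY1 core counted for this gene reaches into the 50 bases after the start, which are not shown.

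Differences between the genotypes went both ways over these genes and were small in most of those near the upper end of the scale. The knockout mean was above the wild-type mean in 26 of the 50 members and below it in 24, which is 52% higher, where 45.9% of all 4698 tested probes were higher. Their median difference, knockout minus wild type, was 0.01 on the log2 scale, against -0.03 over all tested probes, and 30 of the 50 differed by less than 0.1. By level, this held for 19 of the 20 members with a mean above 13 and for 11 of the 30 below. Among all tested probes it held for 68 of 121 above 13 and for 1329 of 4577 below. The differences ran from -0.33 for Cox8a to 0.54 for Sdhaf4. No member passed the test: limma with Benjamini-Hochberg adjustment over all tested probes called 0 of 50 members and 0 of 4698 probes, a background of 0.0%, and the smallest adjusted p of a member was 0.567, for Sdhaf4. At an unadjusted p under 0.05 there were 0 members, where 9.34% of all tested probes passed, 4.75% as higher and 4.6% as lower. The knockout and wild-type values did not overlap in 2 members, Sdhc and Atp5b, both higher in the knockout, which is 4% of the members, where 4.6% of all tested probes did not overlap, 1.87% as higher and 2.72% as lower. The count over all probes depended on the arrays, being 36 without knockout replicate 2, while the count of members was 0 without any single array.

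**Figure D1:**
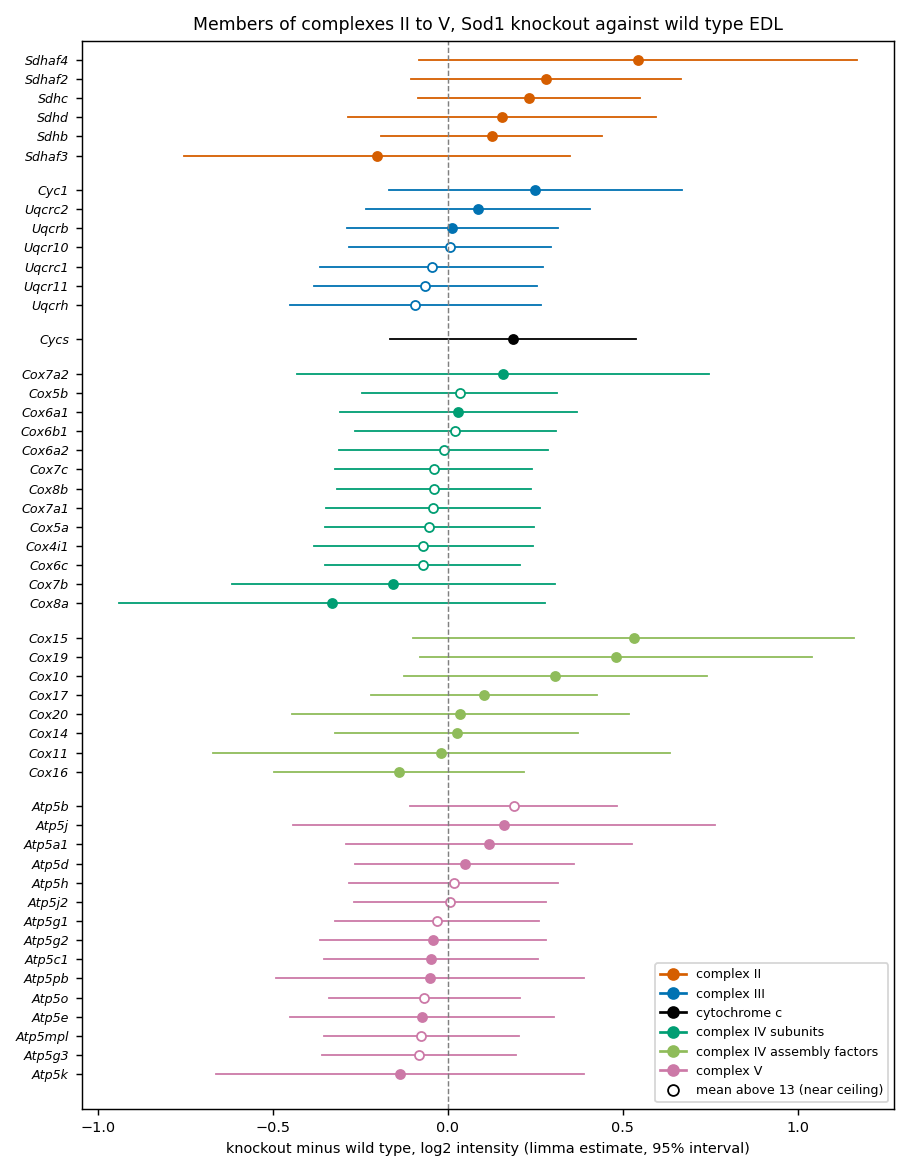
Difference between genotypes for each of the 50 members by role: points are knockout minus wild type in log2 intensity, bars the 95% intervals from limma, and open points members with a mean above 13. Every interval includes 0, and the points run from -0.33 (Cox8a) to 0.54 (Sdhaf4).

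The width of the intervals shows how far the arrays limit these differences. The 95% interval of the difference lay within 0.5 log2 units of 0 for 32 members, and within 1 log2 unit, a 2-fold change, for 47. The 32 were all 20 members with a mean above 13, near the upper end of the scale, and 12 of the 30 below. Of all tested probes, 90 of 121 above 13 and 968 of 4577 below had such an interval. Whether differences are compressed near the upper end was not tested. The other members were Sdhaf4, Cox15 and Cox19, whose upper bounds were 1.17, 1.16 and 1.04. These data come from whole muscle, where fewer cells of a type and less RNA per cell cannot be told apart.

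In complex II, the knockout mean was the higher one for all 3 measured subunits, and the median difference over its 6 genes was 0.19. Sdhc, which anchors the complex in the membrane and helps bind ubiquinone, had log2 intensities of 12.57, 12.59, 12.90 and 12.51 in knockout replicates 1 to 4 and of 12.41, 12.30, 12.48 and 12.44 in the wild type. All knockout values lay above all wild-type values, with replicate 3 the highest and the narrowest gap between knockout replicate 4 and wild-type replicate 3. The difference was 0.23 (SE 0.14, 95% interval -0.08 to 0.55, limma adjusted p 0.624), a 1.17-fold difference, which was 0.15 without knockout replicate 3. The genotype means were 12.64 ± 0.17 (SD, n = 4) and 12.41 ± 0.08.

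Sdhb, the iron-sulphur subunit, stood at 12.74, 12.41, 12.79 and 12.55 in the knockout and at 12.58, 12.46, 12.43 and 12.52 in the wild type. Knockout replicates 1 and 3 lay above the wild type and replicate 2 below it, and the difference was 0.13 (95% interval -0.19 to 0.44). Sdhd, the other membrane anchor, differed by 0.15, with knockout values from 10.06 to 10.61 and wild-type values from 9.77 to 10.45. In all 3 subunits knockout replicate 3 was the highest of the 8 arrays. Wild-type replicate 2 was the lowest for Sdhc and Sdhd.

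The assembly factors of complex II spread more widely. Sdhaf4, which binds the flavin subunit before it joins Sdhb, stood at 9.27, 9.48, 10.03 and 9.37 in the knockout and at 9.55, 8.27, 9.10 and 9.05 in the wild type. Its difference of 0.54 (SE 0.28, limma adjusted p 0.567) had the smallest p of any member, and wild-type replicate 2 lay 0.78 below the next wild-type array. It ran from 0.30 without that array to 0.73 without wild-type replicate 1. Sdhaf2, needed to attach the flavin, stood at 8.61, 8.62, 8.55 and 8.49 against 8.69, 8.25, 8.25 and 7.96. Its knockout values lay close together, all inside the range of the wild type, and it differed by 0.28. Sdhaf3, which helps mature Sdhb, differed by -0.20 and was the only one of the 6 genes with a lower mean in the knockout.

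The 13 measured genes of slow fibres, which are rich in mitochondria, had a mean log2 intensity of 8.57 to 8.99 in the knockout arrays and 8.28 to 8.54 in the wild type. Of the 9 tested, 7 had a higher and 2 a lower mean in the knockout, with a median difference of 0.25. By limma 0 passed the test over all probes and 3 had an unadjusted p under 0.05, where 9.34% of all tested probes did. Differences of the slow fibre genes went both ways. Csrp3, a Z-disc LIM protein, differed by 1.46, Atp2a2, the slow calcium pump, by 1.09 and Ldhb, heart-type lactate dehydrogenase, by 0.43. The myosin light chains Myl3 and Myl2 differed by -1.17 and -0.15. For Myl3 knockout replicate 2, at 9.11, lay above every wild-type array and the other knockout arrays below all of them. Of the 4 below the filter 3 were higher: Tnni1 by 0.86, Casq2 by 0.85 without overlap and Myh7 by 0.77. Tpm3 differed by -0.09. Fast fibre genes had mean levels of 13.57 to 13.72 in the knockout and 13.34 to 13.57 in the wild type, with 10 of 13 higher, a median difference of 0.12 and 0 past the test. The part of either list in the complex II values was not tested.

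Complex III had 4 genes with a higher and 3 with a lower mean in the knockout and a median difference of 0.01. Cyc1, the heme-bearing cytochrome c1 that reduces cytochrome c, had values of 11.60, 11.24, 11.91 and 11.70 in the knockout and of 11.52, 11.04, 11.51 and 11.38 in the wild type. Knockout replicates 1, 3 and 4 lay above every wild-type array and replicate 2 inside their range, and the difference was 0.25 (SE 0.19, 95% interval -0.17 to 0.67, limma adjusted p 0.681). It was the largest difference of the complex, and was 0.14 without wild-type replicate 2 and 0.15 without knockout replicate 3.

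The other 6 genes of complex III differed by less than 0.1. Uqcrc2, a core protein, stood at 12.92, 12.62, 13.06 and 12.80 against 12.78, 12.77, 12.83 and 12.67, and knockout replicates 1 and 3 lay above the wild type. Uqcrh, the acidic hinge protein beside cytochrome c1, stood at 13.43, 13.19, 13.46 and 12.99 against 13.54, 13.41, 13.20 and 13.29, a difference of -0.09 with overlapping values. Uqcr10, a small subunit with the highest mean of the complex, stood at 13.54, 13.73, 13.70 and 13.66 against 13.63, 13.77, 13.65 and 13.55. Its genotype means, 13.66 and 13.65, differed by far less than the spread between arrays. The core protein Uqcrc1 differed by -0.05, Uqcr11 by -0.06 and Uqcrb by 0.01.

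Cytochrome c, encoded by Cycs, carries electrons from complex III to complex IV and also takes part in apoptosis. It stood at 12.64, 12.67, 12.93 and 12.62 in the knockout and at 12.55, 12.23, 12.66 and 12.69 in the wild type. Only knockout replicate 3 lay above all wild-type arrays, and wild-type replicate 2 was the lowest. The difference was 0.19 (SE 0.16, 95% interval -0.17 to 0.54, limma adjusted p 0.721), and 0.09 without wild-type replicate 2.

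**Figure D2:**
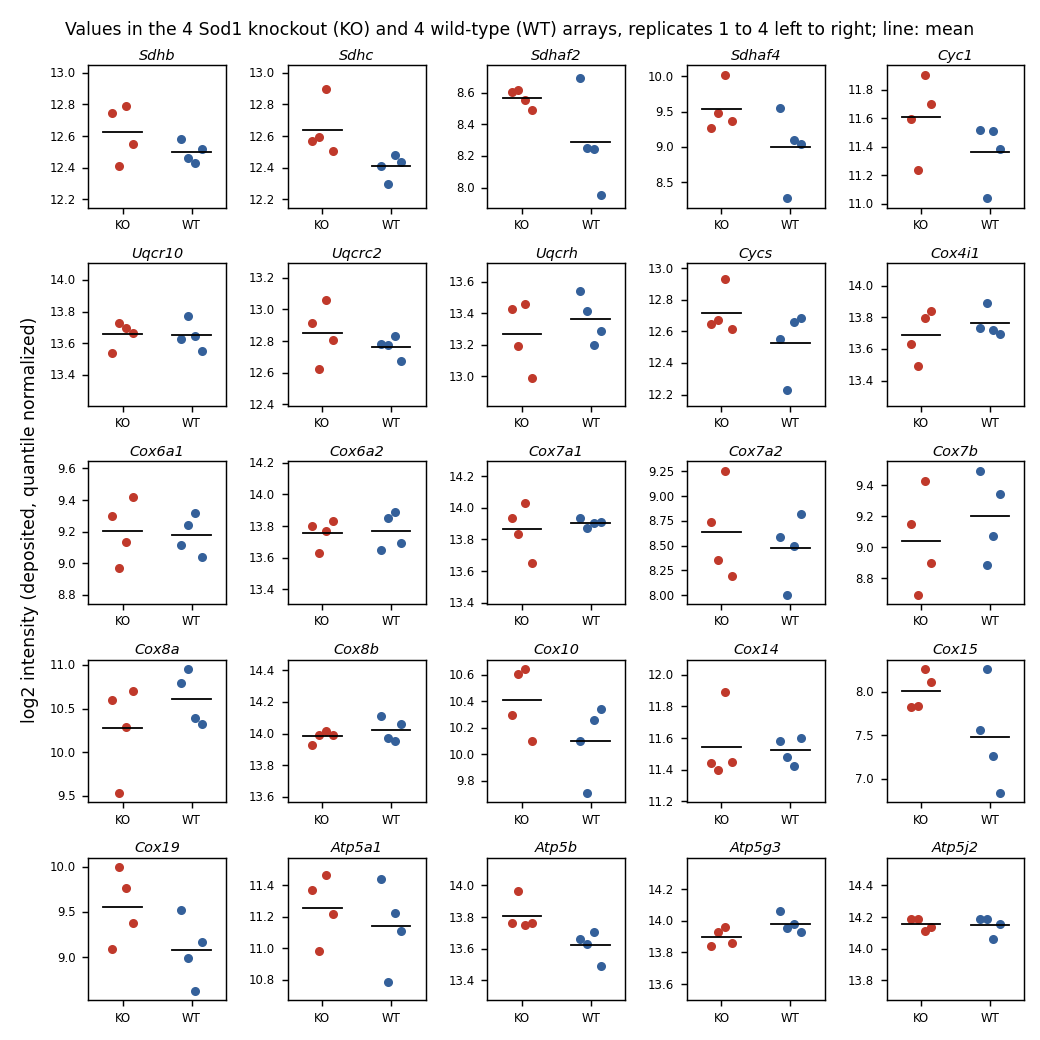
Log2 intensity of 25 members in each array: red points are the 4 knockout and blue points the 4 wild-type arrays, replicates 1 to 4 from left to right, and lines the means, with a separate vertical scale per gene. Sdhc and Atp5b are the members in which all knockout points lie above all wild-type points.

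Subunits of complex IV had 4 higher and 9 lower means and a median difference of -0.04. The muscle isoforms stood close to the upper end of the scale. Cox6a2 stood at 13.80, 13.63, 13.77 and 13.83 in the knockout and at 13.65, 13.85, 13.89 and 13.69 in the wild type, a difference of -0.01 (95% interval -0.31 to 0.29). Cox7a1 stood at 13.94, 13.83, 14.03 and 13.65 against 13.94, 13.87, 13.90 and 13.91, and its knockout values spread to both sides of the wild type. Cox8b stood at 13.93, 13.99, 14.02 and 13.99 against 14.11, 13.97, 13.95 and 14.06, with a difference of -0.04. In none of these 3 isoforms did the genotypes separate.

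The widely expressed isoforms, whose probes read lower on the scale, varied more between arrays. Cox6a1 stood at 9.30, 8.97, 9.14 and 9.42 in the knockout and at 9.11, 9.24, 9.31 and 9.04 in the wild type, a difference of 0.03, and its second probe differed by 0.002. Cox7a2 stood at 8.74, 8.36, 9.26 and 8.19 against 8.59, 8.01, 8.50 and 8.82, a difference of 0.16 that became -0.05 without knockout replicate 3. Cox8a stood at 10.60, 9.54, 10.29 and 10.70 against 10.79, 10.96, 10.39 and 10.32.

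Cox8a had the lowest difference of all 50 members, -0.33 (SE 0.27, 95% interval -0.94 to 0.28, limma adjusted p 0.713), and knockout replicate 2 lay 0.75 below the next knockout array. Without that array the difference was -0.08, and with array weights -0.09. Knockout replicates 2 and 3 were below every wild-type value, and replicates 1 and 4 were inside the wild-type range. Cox4i1, the isoform of subunit 4 used in most tissues, stood at 13.63, 13.49, 13.80 and 13.84 against 13.74, 13.89, 13.72 and 13.70, a difference of -0.07. Cox7b, a small structural subunit, stood at 9.15, 8.69, 9.43 and 8.90 against 9.50, 8.88, 9.07 and 9.35, and differed by -0.16. The remaining 5 subunits, Cox5a, Cox5b, Cox6b1, Cox6c and Cox7c, differed by -0.07 to 0.03.

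Assembly factors of complex IV had 6 higher and 2 lower means, with a median difference of 0.07, which was -0.01 without knockout replicate 3. The largest differences were those of Cox15, Cox19 and Cox10, and none of the 8 passed the test. Cox15, heme A synthase, stood at 7.82, 7.84, 8.26 and 8.11 in the knockout and at 7.56, 8.26, 7.26 and 6.84 in the wild type. Wild-type replicate 2 alone reached the knockout values, and the difference was 0.53 (SE 0.28, 95% interval -0.10 to 1.16, limma adjusted p 0.575), which was 0.32 without wild-type replicate 4. Cox10, which makes the heme O that Cox15 converts, stood at 10.30, 10.60, 10.64 and 10.10 against 10.10, 9.71, 10.26 and 10.34, and differed by 0.31, or 0.18 without wild-type replicate 2.

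Cox19, a small protein of the space between the mitochondrial membranes that takes part in copper handling, stood at 9.09, 10.00, 9.76 and 9.37 in the knockout and at 9.52, 8.99, 8.63 and 9.17 in the wild type. Knockout replicates 2 and 3 lay above all wild-type arrays and the other two among them, and the difference was 0.48 (SE 0.25, limma adjusted p 0.573). Cox17, the copper chaperone that serves complex IV, differed by 0.10. Cox14, which acts early in the assembly of subunit 1, stood at 11.44, 11.40, 11.89 and 11.45 against 11.58, 11.48, 11.42 and 11.60. Its difference of 0.02 turned to -0.09 without knockout replicate 3, the highest array. Cox11, which delivers copper, differed by -0.02, Cox16 by -0.14 and Cox20 by 0.04.

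In complex V 1 of 15 members, the catalytic subunit, had values that did not overlap between the genotypes. That is 6.67%, where 4.6% of all tested probes did not overlap, 1.87% as higher. Atp5b, the beta subunit that carries the catalytic sites, had log2 intensities of 13.76, 13.96, 13.75 and 13.76 in the knockout and of 13.66, 13.63, 13.70 and 13.49 in the wild type. All knockout values lay above all wild-type values, by 0.04 at the narrowest, and knockout replicate 2 was the highest. The means were 13.81 ± 0.10 (SD, n = 4) and 13.62 ± 0.09, and the difference was 0.19 (SE 0.13, 95% interval -0.11 to 0.48, limma adjusted p 0.666). Counted from the brightest of the 9232 probes of an array, Atp5b ranked 41, 15, 43 and 41 in the knockout and 58, 64, 51 and 79 in the wild type. Skeletal muscle markers, which share this range of values, also had higher means in the knockout arrays, as given above, with 9 of 10 higher by a median of 0.09 and Mylpf and Actn3 without overlap. Of the fast fibre genes, whose levels are given with complex II, 3 of 13 had no overlap, all higher, Mylpf and Actn3 among them. These lists also share Pvalb, Tnni2, Tnnt3 and Atp2a1 and are not separate observations. For both lists the share over all tested probes was the 1.87% given above. The part of these levels in the Atp5b difference was not tested.

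The partner of Atp5b, the alpha subunit Atp5a1, stood at 11.37, 10.98, 11.46 and 11.22 in the knockout and at 11.44, 10.78, 11.22 and 11.11 in the wild type. Its difference was 0.12 (95% interval -0.29 to 0.52), with overlapping values and a turn to -0.001 without wild-type replicate 2. The central stalk subunits Atp5c1, Atp5d and Atp5e differed by -0.05, 0.05 and -0.07. Atp5g3, which with Atp5g1 and Atp5g2 encodes the c subunit of the membrane ring, stood at 13.84, 13.93, 13.96 and 13.86 against 14.06, 13.95, 13.98 and 13.93.

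The 3 c-subunit genes all had slightly lower means in the knockout, by -0.03 for Atp5g1, -0.04 for Atp5g2 and -0.08 for Atp5g3, and whether their probes tell these related transcripts apart was not tested. Of the stator subunits, Atp5o differed by -0.07, with knockout values from 13.65 to 13.78 and wild-type values from 13.77 to 13.81, Atp5pb by -0.05, Atp5h by 0.02 and Atp5j by 0.16. The second probe of Atp5j differed the other way, by -0.25. Atp5j2, a membrane subunit, stood at 14.19, 14.19, 14.11 and 14.14 against 14.19, 14.19, 14.06 and 14.16 and was the brightest probe of all on 4 of the 8 arrays. Atp5k differed by -0.14 and the small proteolipid Atp5mpl by -0.08. Complex V as a whole had 6 higher and 9 lower means and a median difference of -0.04, which became 0.01 on leaving out either knockout replicate 2 or wild-type replicate 1.

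Many members stood close to the upper end of the scale. The deposited values were quantile normalized, which gives each array the same distribution, here up to 14.19. With a mean above 13 there were 20 of the 50 members, or 40%, where 2.58% of all tested probes lay there. They were 9 of 13 complex IV subunits, 4 of 7 genes of complex III and 7 of 15 of complex V, and none of complex II, cytochrome c or the assembly factors. The SD between arrays of a genotype had a median of 0.09 in these 20 members and of 0.25 in the 30 below, compared with 0.11 and 0.30 for all tested probes above and below 13. Differences followed the same split: the 20 members near the ceiling differed by -0.09 to 0.19 and the 30 below by -0.33 to 0.54. Below the ceiling the knockout mean was higher in 20 of 30 members, with a median difference of 0.07, and near it 6 of 20, with a median of -0.04. Complexes III and V and the complex IV subunits had members on both sides, and without those near the ceiling their median differences were 0.09, -0.05 and -0.06, over 3, 8 and 4 genes.

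**Figure D3:**
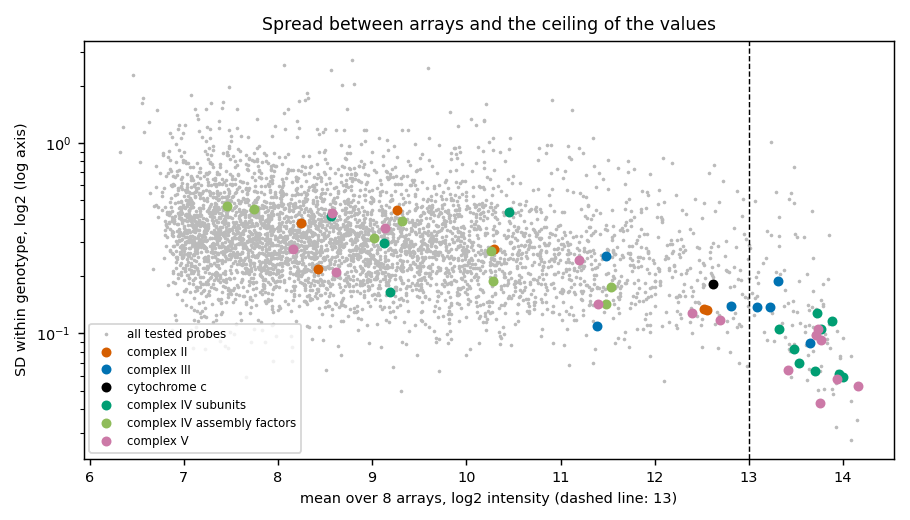
SD between arrays of the same genotype (vertical, log axis) against the mean log2 intensity over 8 arrays (horizontal) for all 4698 tested probes in grey and the 50 members in colour by role. To the right of the dashed line at 13 the 20 members have a median SD of 0.09, and the 30 members to its left one of 0.25.

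Some arrays were high or low across many of these genes, within both genotypes. Knockout replicate 3 was the highest of the 8 arrays for 23 of the 50 members, or 46%, and the lowest for 0, while over all tested probes it was the highest for 16.7% and the lowest for 15.6%. Wild-type replicate 1 was the highest for 14 members, or 28%, against 11.5% of all tested probes. Knockout replicate 2 was the lowest for 15, or 30%, against 12% of all tested probes, and knockout replicate 4 for 10, or 20%, against 10.2%. Wild-type replicate 2 was the lowest for 10 members as well, a share close to its 21.2% of all tested probes. The median deviation of the members from their mean over 8 arrays was 0.04, -0.05, 0.15 and -0.05 in knockout replicates 1 to 4 and 0.05, -0.07, -0.04 and 0.02 in wild-type replicates 1 to 4. Arrays above and below their mean were thus present in both genotypes.

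By complex, knockout replicate 3 stood above the mean of the arrays in every role, from 0.03 in complex IV subunits to 0.37 in the assembly factors of complex IV. Knockout replicate 2 split the roles: complexes III and V stood at -0.16 and -0.19 there, complex II at 0.13 and the assembly factors of complex IV at 0.19. Wild-type replicate 2 was low in complex II, at -0.29, in cytochrome c, at -0.40, and in the assembly factors, at -0.21, and not in complex IV subunits, at 0.04. The median difference of complex II, 0.19 over all arrays, was 0.11 on leaving out knockout replicate 3 and 0.16 on leaving out wild-type replicate 2.

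**Figure D4:**
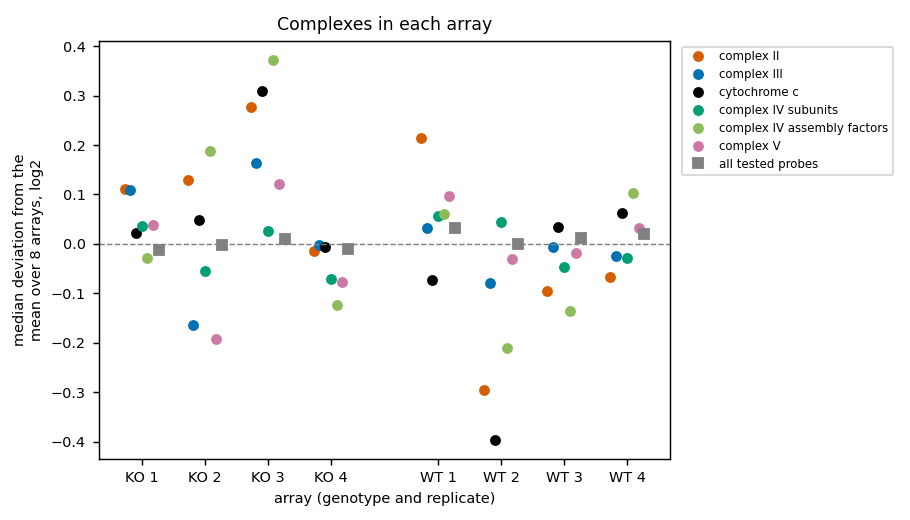
Median deviation of each role from its mean over 8 arrays (vertical, log2) in each array (horizontal, knockout on the left and wild type on the right), with all 4698 tested probes as grey squares. All 6 roles are above 0 in knockout replicate 3, and complex II, cytochrome c and the assembly factors of complex IV are lowest in wild-type replicate 2.

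A second probe existed for 5 members. For Sdhb and Sdhc the second probe lay below the filter and differed in the same direction as the first, by 0.28 and 0.14. Both second probes had overlapping values, that of Sdhc from 5.135 to 6.187 in the knockout and from 5.28 to 6.282 in the wild type. For Cox6b1, which lies where complex IV pairs into a dimer, the probes differed by 0.02 and -0.01.

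Other genes of the respiratory chain were read from the same fit. Of 27 tested genes taken as complex I subunits by their Nduf symbols 9 had a higher and 18 a lower mean, with a median difference of -0.06. By limma 0 passed the adjusted threshold in either direction, and 0 had an unadjusted p under 0.05, where 9.34% of all tested probes did. Ndufa4, which differed by -0.06, is also counted below with the genes of complexes II to V. Ndufa8 stood at 11.62, 11.36, 11.67 and 11.35 in the knockout and at 11.31, 10.92, 11.23 and 11.22 in the wild type. Its difference was 0.33, and it was the only gene of this list without overlap. Over all tested probes 1.87% were higher without overlap. Ndufb3 differed by 0.29 and Ndufb4 by -0.37. Citric acid cycle genes had 10 of 15 higher means and a median difference of 0.20. Of these 15, 0 passed the adjusted threshold and 1 had an unadjusted p under 0.05, against 9.34% of all tested probes. Among the citric acid cycle genes Sucla2, a subunit of succinyl-CoA synthetase, differed by 0.74, Dlst by 0.28 and Fh1, fumarase, by -0.32.

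Assembly factors and regulators of complexes II to V with other symbols, Ndufa4 counted with them, had 9 of 16 higher means and a median difference of 0.06. Of these 0 passed the adjusted threshold and 3 had an unadjusted p under 0.05, where 9.34% of all tested probes did. Uqcc1, an assembly factor of complex III, stood at 7.97, 8.17, 7.74 and 8.01 in the knockout and at 7.87, 6.93, 7.10 and 7.26 in the wild type, a difference of 0.68 (limma adjusted p 0.465). Wild-type replicate 1 was inside the knockout range and the other wild-type arrays were below it. Coa5, an assembly factor of complex IV, differed by 0.44 and Atpaf2, which assembles the catalytic part of complex V, by 0.38, both with an adjusted p of 0.526.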

How the data were processed

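Muscle RNA was isolated on columns, labelled with biotin as cRNA and hybridized to Illumina arrays, per the labels' protocols. The authors deposited log2 intensities, and sorting any of the 8 columns gives the same values, from 3.21 to 14.19, which shows quantile normalization; the log base was judged from this range. Background correction, software and earlier filters are not stated. Another table with 8 columns of per-sample values was not used, because its column names match no labels.

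Of 9232 probes, 8403 had 1 gene name, 3 several and 826 none; 8399 matched the RefSeq gene table (GRCm38.p6) by Entrez number, and 0 symbols changed. The 4698 probes above the array median in at least 4 of 8 arrays entered a linear model of genotype in limma 3.58.1 under R 4.3.3 (moderated by eBayes, two-sided, Benjamini-Hochberg over all tested probes, threshold 0.05), and the fit was tested on simulated data. A difference is knockout minus wild type. Precision is limited by the 4 arrays per genotype: the median SE of a difference was 0.21 over all tested probes and 0.14 over the members. The labels name no batch.

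Members, lists, tests and naming rule were chosen with earlier results of these data known. Values in all arrays are given, in each role, for the member of highest mean, the 3 of smallest p and the isoform pairs of complex IV, and for other lists up to 3 genes of smallest p are named. Members and marker genes outside this rule were named after their values were seen. Alternatives were other filters, moderation with a trend, array weights, a replicate block, cyclic loess, other summaries and each array left out. Same-numbered arrays of the genotypes deviated from their group means with correlations from -0.34 to 0.243 across probes, so the numbers were not used as pairs. Between differently numbered arrays the correlations ran from -0.491 to 0.498.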

Additional observations from a re-analysis of the deposited data

Results flagged for a closer look

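In 4 of 100 sets of 4 arrays (50 members in each genotype), 1 array stood apart from the other 3 by more than Dixon's limit, where chance flags about 1 in 20 such sets. For Atp5b, the catalytic beta subunit of ATP synthase, knockout replicate 2 was the highest, at 13.96 against 13.75 to 13.76 in the other knockouts (gap over range 0.953). For Cox14, an assembly factor of complex IV, knockout replicate 3 was the highest, at 11.89 against 11.40 to 11.45 (0.906). For Cycs, cytochrome c, it was again knockout replicate 3, at 12.93 against 12.62 to 12.67 (0.831). For Cox5a, a subunit of complex IV, wild-type replicate 1 was the highest, at 13.48 against 13.30 to 13.32 (0.882).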

How the results depend on the processing

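The count of members past the adjusted threshold was 0 under all 14 alternative fits, including each array left out (0 to 0), and the smallest adjusted p of a member ran from 0.233 with array weights to 0.858 without knockout replicate 3. At an unadjusted p under 0.05 it was 0 to 3 members, the 3 of 50 without wild-type replicate 1, where 424 of all 4698 tested probes passed. Over all probes the count was 0 as reported, 4 with array weights and 0 to 36 with each array left out, the 36 without knockout replicate 2; the cause was not tested. The replicate block gave 0 probes and 0 members past the threshold and changed no call. It left the median differences at 0.006 for all members and 0.19 for complex II. That was fixed by the design, since every replicate number has an array of each genotype. The median differences of all members and of each role moved by less than the spread between arrays under the alternatives tried. The alternatives for the assembly factors of complex IV were chosen after seeing the data. That spread is the SD of the array medians within genotype, 0.17 for complex II. Leaving out a single array can hardly move a median difference by so much, so this comparison does not show stability. Complex II stayed between 0.11 and 0.27, and the assembly factors between -0.01 and 0.18. Of the 25 members given in all arrays, 17 kept their sign in every alternative and 8, all differing by less than 0.2, did not. With array weights Cox6a2 turned to 0.0066. With each array left out, Uqcr10 ran from -0.028 to 0.047, Cox6a1 from -0.042 to 0.11, Cox6a2 from -0.054 to 0.0305, Cox7a1 from -0.099 to 0.028, Cox7a2 from -0.049 to 0.31, Cox14 from -0.091 to 0.073, Atp5a1 from -0.00099 to 0.22 and Atp5j2 from -0.024 to 0.022. With the ceiling set 0.5 lower or higher, 25 or 14 members lay above it in place of 20. Fitting the table of values before normalization was not done, since its columns could not be matched to samples.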

Other observations

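Regulators of respiratory genes and copper transport lie upstream of these complexes. Of 16 measured transcriptional regulators 8 were tested, and all 8 had a higher mean in the knockout, with a median difference of 0.17, while of the 8 below the filter 2 were higher and 6 lower. By limma 0 passed the adjusted threshold. Where 9.34% of all tested probes had an unadjusted p under 0.05, 1 of the 8 did, Esrrb, an estrogen-related receptor. It stood at 7.97, 7.01, 8.10 and 8.40 in the knockout and at 6.71, 7.76, 7.13 and 5.92 in the wild type, a difference of 0.99 (limma adjusted p 0.518), and the genotypes overlapped. Mef2c, a muscle transcription factor, differed by 0.60 and Mef2a by 0.48.

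Ccs, the chaperone that loads copper into Sod1, stood at 9.22, 9.21, 9.24 and 9.28 in the knockout and at 9.34, 9.38, 9.44 and 9.29 in the wild type. All knockout values lay below all wild-type values, where 2.72% of all tested probes did so. The nearest were knockout replicate 4 at 9.283 and wild-type replicate 4 at 9.287. The difference was -0.12 (limma adjusted p 0.773) and did not pass. Slc25a3, the carrier that brings phosphate and copper into mitochondria, stood at 12.63, 12.60, 12.61 and 12.38 against 12.54, 12.31, 12.32 and 12.23, a difference of 0.20 with overlapping values. Commd1, a protein of copper export, differed by 0.28.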
